A study of Mus musculus with 10 samples.

Results

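The expression of 9 drug efflux transporters of the ATP-binding cassette (ABC) family was examined in orthotopic pancreatic tumors of mice given dextrose water. The members, taken by gene symbol from the 55359 genes of the deposited table, were Abcb1a, Abcb1b, Abcc1, Abcc2, Abcc3, Abcc4, Abcc5, Abcc10 and Abcg2, and all 9 were among the 24560 genes tested. Tumors were grown from KPC K8484 cells, a single murine pancreatic cancer line, which were made to express luciferase and placed in the pancreas of 10-week-old C57BL/6 mice. The CTRL group consisted of 5 tumors from normoglycemic mice drinking regular water, and the D30 group of 5 tumors from mice made hyperglycemic with 30% dextrose in their drinking water for 14 days. The sample titles call the tumors PDX, while the source named for them is the KPC line. Both groups shared the cell line, the strain and the site, and the methods state that mice of both sexes were used without tying a mouse to a column of the table. Tumors are named here by their columns, N1, N2, N4, N5 and N6 for CTRL and T1, T2, T4, T5 and T7 for D30. The comparison asks whether the pumps that carry chemotherapeutic agents out of cells differed in transcript level between the 2 conditions.

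ABC transporters are membrane proteins that hydrolyse ATP at nucleotide-binding domains to move substrates across membranes. P-glycoprotein, encoded by the paralogs Abcb1a and Abcb1b in the mouse, and the breast cancer resistance protein Abcg2 export many hydrophobic drugs. The multidrug resistance-associated proteins of the Abcc branch export organic anions and drug conjugates with glutathione, glucuronide or sulfate, and Abcc4, Abcc5 and Abcc10 can also export nucleotide or nucleoside analogs. Such pumps are studied in pancreatic cancer because they can lower the drug inside tumor cells, and several of them also carry bile acids in liver and intestine.

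The conserved ATP-binding motif of these proteins, Walker A, is encoded by stretches such as those below, shown to compare the P-glycoprotein paralogs with other members. The number of motifs, not these stretches, tells the full transporters from the single-motif transporter. Of Abcc4, Abcb1a and Abcb1b only motif 1 is shown. The sequences were read from GENCODE M21 transcripts (GRCm38) and capitals mark the codons of the glycine, lysine and serine or threonine that close the motif. Abcg2 carries 1 such motif in 657 residues and works as a dimer, while the other members carry 2 in 1276 to 1543 residues.
Abcc3, motif 1: ggacctgtgggctgtGGGAAGTCT
Abcc3, motif 2: ggccgcactggggctGGCAAATCT
Abcc4, motif 1: ggcccagttggagcaGGCAAGTCG
Abcg2, motif 1: ggacccacaggcggaGGCAAGTCT
Abcb1a, motif 1: ggcaacagtggctgtGGAAAAAGC
Abcb1b, motif 1: ggcaacagtggctgtGGAAAAAGC
The first motif of Abcb1a and that of Abcb1b are the same in every base. This likeness bears on the counting of reads, since the coding sequences of the pair are 88.2% identical over 3819 aligned bases and their proteins 85.4%. The 5' edge of their longest shared run, of 338 bases, is shown next, with 30 bases before the run and the first 60 bases of it, and capitals mark the 4 bases that differ.
Abcb1a, coding bases 1327 to 1416: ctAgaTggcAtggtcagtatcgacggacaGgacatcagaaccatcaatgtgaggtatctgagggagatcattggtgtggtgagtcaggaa
Abcb1b, coding bases 1336 to 1425: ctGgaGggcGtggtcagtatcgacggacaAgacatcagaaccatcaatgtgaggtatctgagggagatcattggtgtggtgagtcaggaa
For each gene, 100-base words were taken from the transcript with the longest coding sequence. Of those of Abcb1a, 7.72% also occur in another gene, nearly all in Abcb1b, and of those of Abcb1b 8.72% occur in Abcb1a. Levels of this pair are therefore uncertain to the extent that the authors' counting could split or drop such reads. The share was 0% for Abcc1, Abcc2, Abcc3, Abcc4, Abcc5, Abcc10 and Abcg2.

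Depth ranged from 29192261 to 42122304 recovered reads per tumor. T4 and N1 stood apart, in that their levels fell with the GC content of genes by 0.69 and 0.41 on the log2 scale per 10 percentage points, whereas in the other 8 tumors they rose by 0.02 to 0.30. T4 was also the only tumor with reads of the Y-linked genes Ddx3y, Eif2s3y, Kdm5d and Uty, 841 in all. Every other tumor, in both groups, had 0 such reads, although the methods state that mice of both sexes were used. A difference in the sex of the mouse therefore cannot be told apart from the other traits of T4. T5 had the fewest genes with a read and far more hemoglobin transcript than the other tumors. Values without T4, N1 or T5 are given where they change a result. Of the 24560 genes tested with limma, 678 passed an adjusted p of 0.05, which is 2.76% of them. The share called higher in D30 was 1.4%.

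Abcc3 was the only 1 of the 9 members that passed the test, and it was higher in every D30 tumor than in any CTRL tumor, while 1.4% of all genes tested were called higher. Abcc3 (ENSMUSG00000020865, chromosome 11, 94343295 to 94392997, minus strand, GRCm38) encodes MRP3, a pump of the basolateral membrane that exports bile salts and glucuronide conjugates of drugs. The normalized counts, which are reads divided by 1 size factor per tumor, were 694, 492, 849, 749 and 760 in the CTRL tumors N1, N2, N4, N5 and N6. In the D30 tumors T1, T2, T4, T5 and T7 they were 2955, 5640, 1216, 3312 and 3662. The groups did not overlap, T2 being highest and T4 lowest among the D30 tumors. The mean was 709 ± 133 for CTRL and 3357 ± 1586 for D30 (SD, n = 5 each). The difference was 2.11 on the log2 scale (standard error 0.335, 95% interval 1.38 to 2.83), or 4.31-fold (2.61 to 7.11), with an adjusted p of 0.00581 by limma with Benjamini-Hochberg adjustment over all genes tested. The two-sided exact permutation test gave p = 0.00794, the smallest that 5 tumors against 5 can give. Groups did not overlap for 6.19% of all genes tested, and by p value Abcc3 was number 116 among them. Without T4 the log2 difference was 2.43 (adjusted p = 0.000125).

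**Figure D1:**
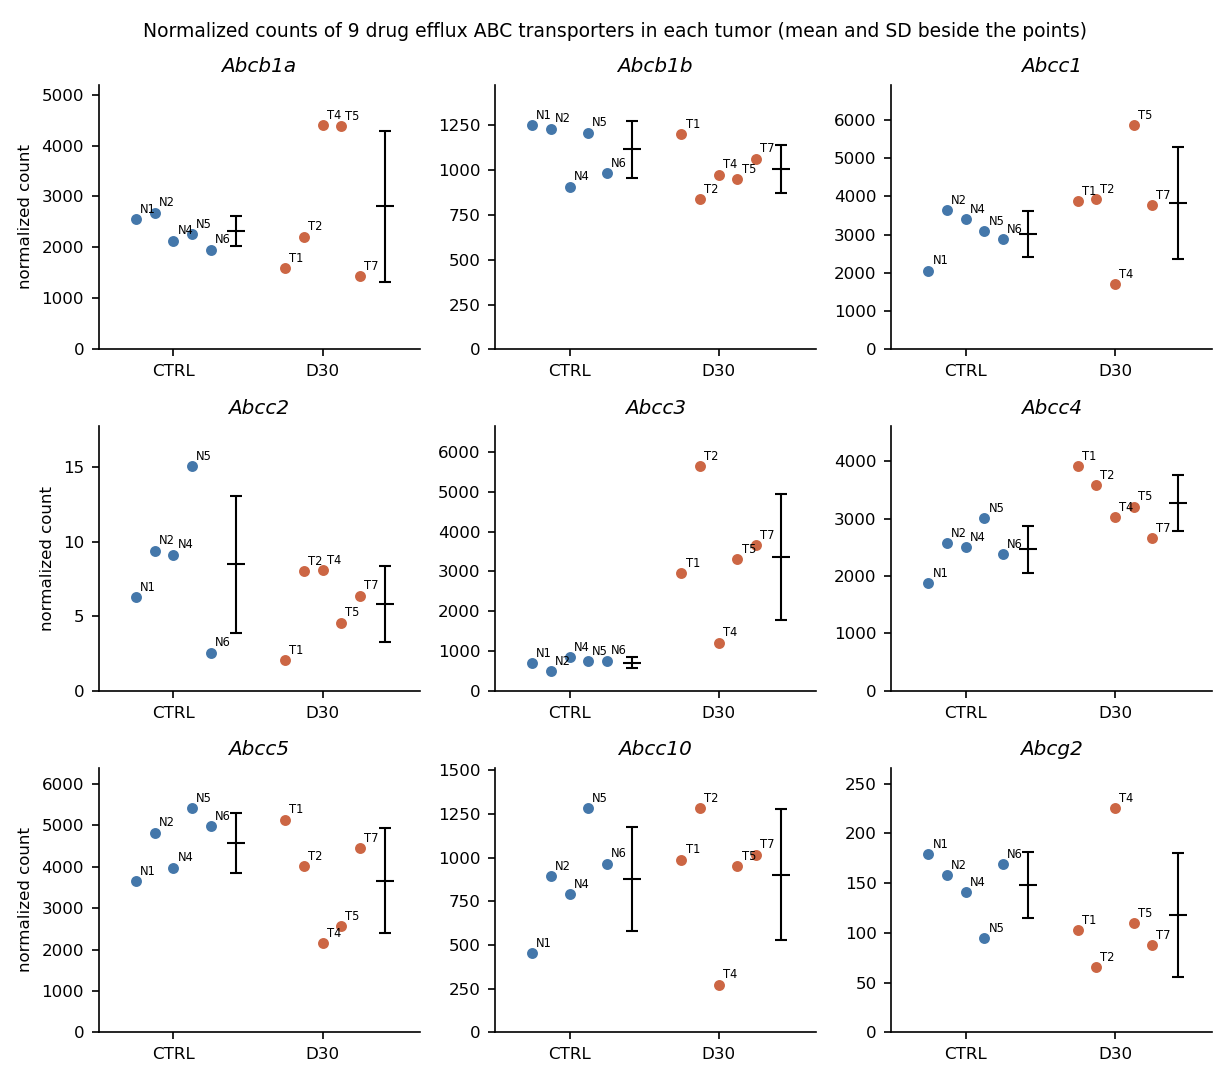
Normalized counts (vertical axes, linear from 0) of the 9 transporters in each of the 5 CTRL tumors (blue) and 5 D30 tumors (orange), with the column name beside each point and the mean and SD in black. Abcc3 is the panel in which the groups do not overlap, with CTRL tumors between 492 and 849 and D30 tumors between 1216 and 5640.

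The change altered the order of the pumps when levels were compared per kilobase of exon. Per kilobase, the Abcc3 level averaged 124 ± 23.4 for CTRL and 589 ± 278 normalized counts for D30 (SD, n = 5 each). In CTRL tumors it ranked 5 to 7 among the 9 members and made up 4.37% to 8.39% of their summed level. In D30 tumors it ranked 1 to 3 and made up 10.7% to 34.2%. These ranks and shares depend on the length used, the union of all annotated exons. It is 15092 bases for Abcc1, 10681 for Abcc5 and 5698 for Abcc3. Their coding sequences are 4587, 4311 and 4572 bases. In normalized counts without length scaling, Abcc3 in T1 (2955) lay below Abcc5 (5141), Abcc4 (3907) and Abcc1 (3873). In T2 (5640) it lay above every other member. The summed level of the 9 members per kilobase was 1606 to 2079 in CTRL and 1995 to 2892 in D30. Without Abcc3 the sum was 1484 to 1947 in CTRL and 1638 to 2201 in D30, and the groups overlapped more widely. The share of Abcc5 in the sum, of which Abcc3 is itself a part, was 20.98% to 25.9% in CTRL and 8.61% to 19.5% in D30.

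**Figure D2:**
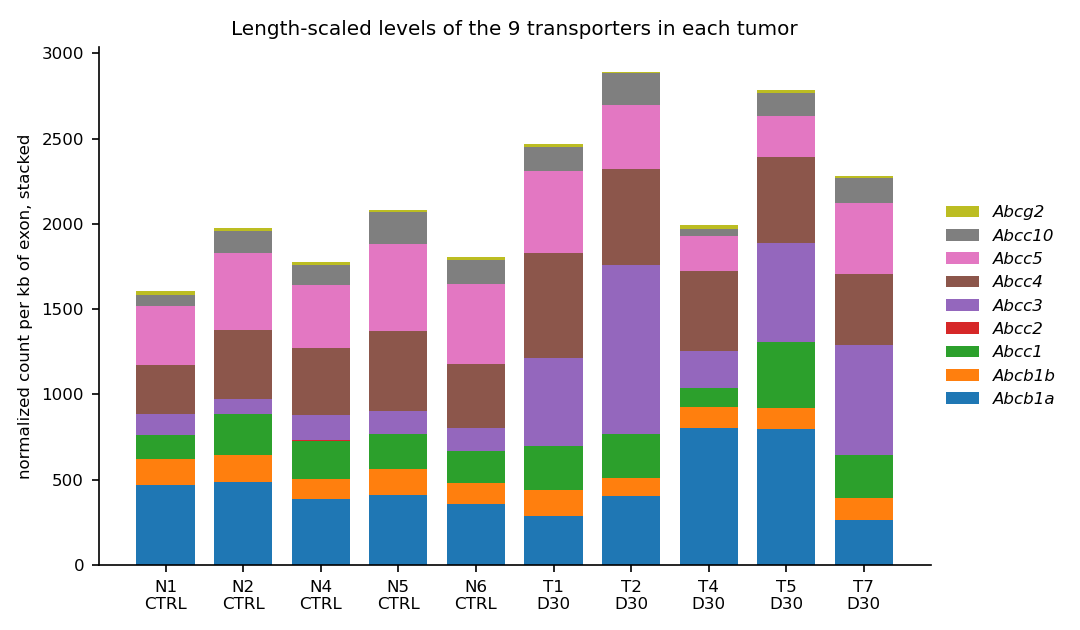
Length-scaled levels of the 9 transporters, stacked for each tumor (vertical axis, normalized counts per kb of exon, from 0). The Abcc3 segment spans 86.4 to 149 over the CTRL bars and 213 to 990 over the D30 bars.

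In CTRL tumors the highest levels per kilobase were those of Abcc5 (428 ± 68.7, SD, n = 5), Abcb1a (423 ± 54.5) and Abcc4 (386 ± 63.9), which lay within their spread of each other. Abcc1 followed with 200 ± 40.3, then Abcb1b with 140 ± 20, Abcc10 with 128 ± 43.5 and Abcc3, and Abcb1b, Abcc10 and Abcc3 also lay within their spread. Abcg2 had 18.2 ± 4.07 and Abcc2 0.995 ± 0.537, so that they were the lowest members in all 10 tumors. In D30 tumors the means of Abcc3, Abcc4 (513 ± 75.8) and Abcb1a (512 ± 270) lay within their spread of each other. Abcc5 (343 ± 119) was below Abcc4 in all 5 tumors, in T7 only by 416.0 against 416.7. In normalized counts Abcc5 was below Abcc4 in T4 and T5 only. It was above Abcc4 in T1 (5141 against 3907), T2 (4024 against 3578) and T7 (4443 against 2662).

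Abcc4 (ENSMUSG00000032849, chromosome 14, 118482692 to 118706219, minus strand) encodes MRP4, which exports cyclic nucleotides, nucleotide analogs and bile acids. Its normalized counts were 1870, 2573, 2496, 3008 and 2386 in CTRL and 3907, 3578, 3020, 3207 and 2662 in D30 tumors. In D30, 4 of the 5 tumors lay above every CTRL tumor, and T7 lay within the CTRL range. The log2 difference was 0.41 (standard error 0.18, 95% interval 0.02 to 0.80), and the adjusted p of 0.26 missed the threshold. The exact permutation p of 0.0159 became 0.341 with library-size scaling, under which the median of all genes shifted from -0.07 to -0.27 and the difference of Abcc4 was 0.19.

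Abcc1 (ENSMUSG00000023088, chromosome 16, 14361558 to 14475737, plus strand) encodes MRP1, an exporter of glutathione conjugates and anthracyclines. It had 2063, 3637, 3416, 3098 and 2878 normalized counts in CTRL and 3873, 3924, 1709, 5871 and 3772 in D30 tumors. The other 4 D30 tumors lay above every CTRL tumor, while T4 lay below them all. The log2 difference was 0.27 (standard error 0.289, 95% interval -0.36 to 0.89, adjusted p = 0.687), and the exact permutation p was 0.397. Without T4 the log2 difference was 0.53, with an exact permutation p of 0.0159 and an adjusted p of 0.121, which still missed the threshold. It was 0.09 without T5 (adjusted p = 0.908), 0.14 without N1 (adjusted p = 0.857) and 0.04 with library-size scaling. N1 and T4, whose levels fell with GC content, were the lowest tumors of their groups for Abcc1. The part of GC content in that was not tested beyond the GC-adjusted fit, in which the difference was 0.34 (adjusted p = 0.55).

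Abcc5 (ENSMUSG00000022822, chromosome 16, 20331303 to 20426394, minus strand) encodes MRP5, an exporter of cyclic nucleotides and of metabolites of fluoropyrimidines. Its normalized counts were 3654, 4822, 3977, 5421 and 4988 in CTRL and 5141, 4024, 2151, 2558 and 4443 in D30 tumors. T4 and T5 lay below every CTRL tumor and the other D30 tumors within the CTRL range. The log2 difference was -0.38 (95% interval -0.92 to 0.16, adjusted p = 0.467), and it was -0.21 without T4 and -0.605 with library-size scaling. Abcc10 (ENSMUSG00000032842, chromosome 17, 46303221 to 46328352, minus strand), or MRP7, which can export taxanes, had 456, 896, 792, 1281 and 966 normalized counts in CTRL and 988, 1284, 273, 950 and 1017 in D30 tumors. Its groups overlapped over nearly their whole range, with a log2 difference of -0.05 (95% interval -0.90 to 0.80, adjusted p = 0.965). The sign turned without T4 (0.34), without N5 (0.10) or without N6 (0.003). Exons of Abcc10 overlap those of Dlk2 on the opposite strand, and whether reads were counted by strand is not given in the sources used here.

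Abcc2 (ENSMUSG00000025194, chromosome 19, 43782192 to 43840740, plus strand) encodes MRP2, the apical exporter of conjugates in liver and intestine. It was read 2 to 17 times per tumor. Its normalized counts were 6.31, 9.40, 9.14, 15.1 and 2.57 in CTRL and 2.06, 8.02, 8.10, 4.58 and 6.39 in D30 tumors. The log2 difference of -0.42 had a 95% interval from -1.56 to 0.72 (adjusted p = 0.736), and it was -0.73 without N6, -0.19 without N5 and -0.155 without T1. Abcg2 (ENSMUSG00000029802, chromosome 6, 58584523 to 58695676, plus strand), the single-motif transporter that exports irinotecan metabolites among other drugs, had 179, 158, 141, 94.7 and 169 normalized counts in CTRL and 103, 65.3, 226, 110 and 87.4 in D30 tumors. T4 was the highest of all 10 tumors, and the other D30 tumors lay between 65.3 and 110. The log2 difference was -0.42 (95% interval -1.16 to 0.32, adjusted p = 0.57). Without T4 it was -0.69, with an exact permutation p of 0.0317 and an adjusted p of 0.161. Without T2 it was -0.24. Abcg2 has the lowest GC content of the members, 39.2% of its longest transcript, and Abcc10 the highest, 57.5%. T4 was the highest D30 tumor for Abcg2 and the lowest for Abcc10. Abcb1a and Abcb1b have nearly the same GC content, 45.2% and 45.7%, and of this pair T4 was the highest D30 tumor for Abcb1a only. In the GC-adjusted fit the difference of Abcg2 was -0.23 (adjusted p = 0.717). The part of GC content in the Abcg2 values was not tested beyond that fit.

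The P-glycoprotein genes lie next to each other on chromosome 5. Abcb1a (ENSMUSG00000040584, 8660077 to 8748575, plus strand) had 2556, 2683, 2133, 2258 and 1959 normalized counts in CTRL and 1590, 2215, 4404, 4380 and 1437 in D30 tumors. T4 and T5 lay above every CTRL tumor, T1 and T7 below every CTRL tumor and T2 among them. The log2 difference of 0.12 (95% interval -0.56 to 0.79, adjusted p = 0.885) was smaller than this spread, and its sign turned without T4 (-0.09) or without T5 (-0.08). Abcb1b (ENSMUSG00000028970, 8798147 to 8866315, plus strand) had 1253, 1232, 908, 1210 and 982 normalized counts in CTRL and 1200, 838, 976, 950 and 1065 in D30 tumors. Of the D30 tumors 4 lay within the CTRL range and T2 just below it. Its log2 difference was -0.15 (95% interval -0.54 to 0.24, adjusted p = 0.722). Without T2 it was -0.09, and with library-size scaling it was -0.37, with an exact permutation p of 0.0476 and an adjusted p of 0.299. Exons of Abcb1a overlap Gm42686 and those of Abcb1b overlap Gm5106, both on the opposite strand, so that reads of these could be counted together if strand was not used.

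The balance of the pair was even across CTRL tumors and uneven across D30 tumors. Abcb1b took 29.9% to 34.9% of the reads of both genes in CTRL. In D30 it took 43.0% in T1, 27.5% in T2, 18.1% in T4, 17.8% in T5 and 42.6% in T7. The mean was 32.5% ± 1.92 for CTRL and 29.8% ± 12.5 for D30 (SD, n = 5 each), a difference of -2.7 percentage points with an exact permutation p of 0.619. The SD in D30 was 6.50 times that in CTRL, a description with no test, since it was chosen after the values were seen. Being a ratio within a tumor, the share does not depend on the scaling between tumors. T4 and T5 had nearly the same share.

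**Figure D3:**
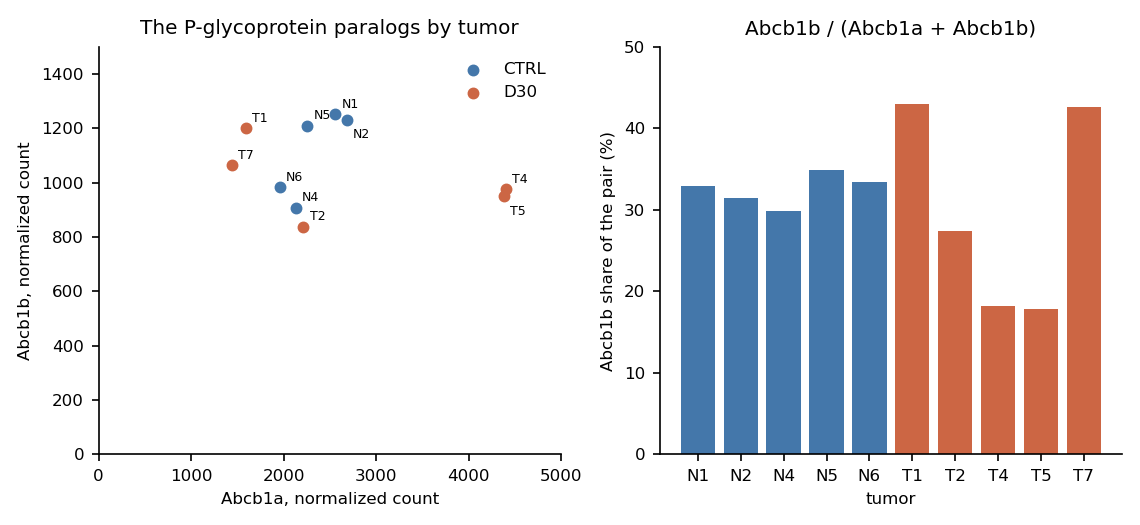
Left, normalized counts of Abcb1a (horizontal) and Abcb1b (vertical) in each tumor, CTRL in blue and D30 in orange, with both axes linear from 0. Right, the share of Abcb1b in the reads of the pair (percent), 29.9 to 34.9 over the CTRL bars and 17.8 to 43.0 over the D30 bars.

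The sequences around the annotated starts of the pair hold matches to different motifs among those searched, and they are shown because the 2 genes differed in how they varied among D30 tumors. Each window holds 250 bases before a RefSeq start and 50 after it (GRCm38.p6, plus strand), and capitals mark matches on either strand to the antioxidant response element core TGACNNNGC, the E-box CACGTG, the CCAAT box, the GC box GGGCGG and the nuclear receptor site AGTTCA. Of the 9 members 7 matched a window, Abcc1 and Abcc3 not being among them.
Abcb1a, chr5:8566841-8567140: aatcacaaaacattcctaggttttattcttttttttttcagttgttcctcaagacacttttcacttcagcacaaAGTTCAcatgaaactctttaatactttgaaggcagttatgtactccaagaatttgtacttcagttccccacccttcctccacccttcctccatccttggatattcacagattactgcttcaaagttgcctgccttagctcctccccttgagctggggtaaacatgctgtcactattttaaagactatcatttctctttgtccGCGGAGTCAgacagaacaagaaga
Abcb1b, chr5:8797897-8798196: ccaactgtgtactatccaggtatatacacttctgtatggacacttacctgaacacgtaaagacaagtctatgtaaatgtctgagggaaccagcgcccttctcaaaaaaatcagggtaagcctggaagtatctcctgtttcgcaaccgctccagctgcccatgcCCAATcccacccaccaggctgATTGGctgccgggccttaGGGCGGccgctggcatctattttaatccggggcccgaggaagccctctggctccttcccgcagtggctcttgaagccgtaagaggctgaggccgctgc
The start in the Abcb1b window is that of the GENCODE gene model, and the window holds a CCAAT match on each strand and a GC box match, while the Abcb1a window lies 92986 bases before the GENCODE start, within the neighbouring gene Rundc3b, and holds a receptor site match and an antioxidant response element core match. Among 32851 windows of this length, 37.4% hold CCAAT, 35.7% the GC box, 13.99% the receptor site, 12.4% the antioxidant response element core and 7.15% the E-box. A match describes letters only and was not tied to binding of any factor.

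**Figure D4:**
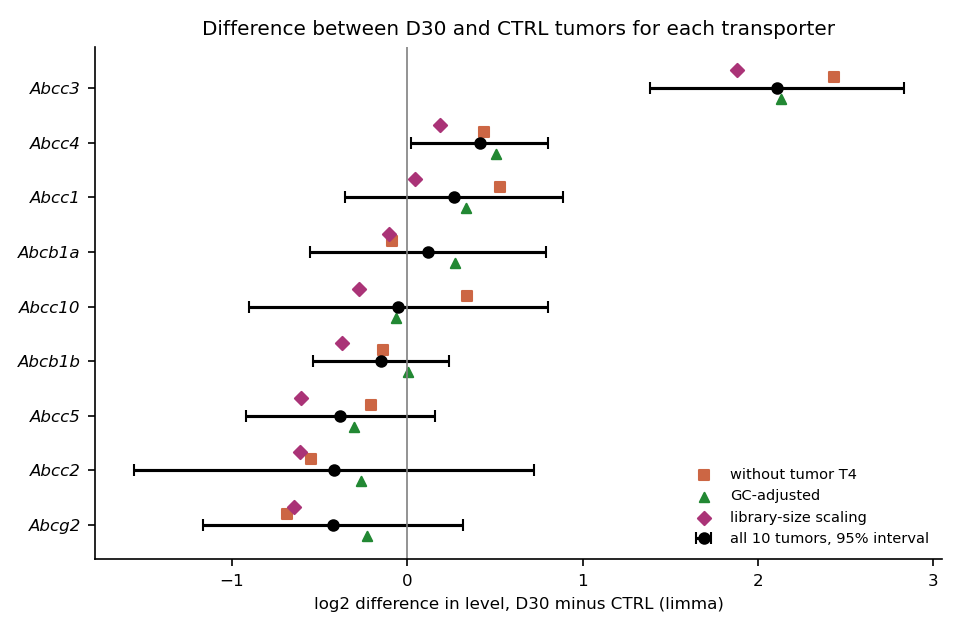
Log2 difference between D30 and CTRL tumors for each transporter (horizontal axis, D30 minus CTRL, limma), with 95% intervals over all 10 tumors in black and the values without T4, with GC adjustment and with library-size scaling as colored symbols. The interval of Abcc3 runs from 1.38 to 2.83 and its values under the 3 other settings lie between 1.88 and 2.43, that of Abcc4 only just leaves out 0, and those of the other members include 0.

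Over the members as a list, 1 passed the test, in the higher direction, and 8 did not. Of all genes tested, 2.76% passed in either direction and 1.4% in the higher one. The median log2 difference was -0.05 over the 9 members and -0.07 over all genes tested, and 4 of the members had a positive difference and 5 a negative one.

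Because these are whole tumors, fewer cells of a type and less RNA per cell cannot be told apart. The summed counts of several lists of cell type markers differed between the groups, and the makeup of the tumors itself was not measured. The summed normalized counts of 8 ductal epithelium markers were 224700 to 355300 for CTRL and 377600 to 500400 for D30, with 7 of the 8 higher in D30 and none called. Epcam, an epithelial adhesion molecule, went the other way, from 15.9 to 192 normalized counts in CTRL and from 0 to 62.5 in D30 (log2 difference -3.17, adjusted p = 0.099). Sox9, a ductal transcription factor, had 354 in T5 and 18.6 to 67.6 in the other tumors. The summed counts of 8 enterocyte markers were 62930 to 102600 in CTRL and 118900 to 282400 in D30, with none called. Lgals4 was the largest part of that sum (means 45760 and 126000), while Vil1 averaged 8441 and 8868. The summed counts of endothelial markers were 11990 to 19390 in CTRL and 6936 to 10790 in D30, where Cdh5 was called lower. Cdh5 was the largest part of that sum (means 11940 and 4437). Vwf and Cldn5 had positive log2 differences (0.38 and 0.33), and the other 6 endothelial markers negative ones. The summed counts of T cell markers were 326 to 680 in CTRL and 240 to 345 in D30, with none called. The sums of T cell markers overlapped between groups, as did those of macrophage, fibroblast and acinar markers. All 8 fibroblast markers and all 8 T cell markers had a negative difference, with medians of -0.86 and -0.86 on the log2 scale, and none of the fibroblast or acinar markers was called. Csf1r was the macrophage marker called lower. Hepatocyte markers, with Alb and Ttr called lower, had 1488 to 3566 in CTRL and 477 to 1234 in D30. Ttr was the largest part of that sum (means 2235 and 756), while Apoa1 averaged 26.8 and 27.2. Markers of red cells and platelets, with Gp9 called higher, had 5173 to 7377 in CTRL and 4329 to 172900 in D30, highest in T5.

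Set against the epithelial markers of the same tumor, Abcc3 was still higher in D30 tumors, by a smaller amount. Per 10000 counts of the ductal markers there were 30.6, 21.9, 23.9, 33.2 and 28.6 counts of Abcc3 in the CTRL tumors and 63.4, 149, 28.8, 66.2 and 91.8 in the D30 tumors. The value of T4 lay within the CTRL range and the other 4 lay above it. The mean was 27.6 ± 4.67 for CTRL and 79.9 ± 44.9 for D30 (SD, n = 5 each), a log2 difference of 1.35 with an exact permutation p of 0.0238. Krt8, Krt19 and Krt18 were the largest parts of the marker sum, so the ratio is mainly one to keratins. Their log2 differences were 0.60, 0.63 and 0.90. Those of Krt7, Muc1, Cdh1, Sox9 and Epcam were 1.04, 0.79, 0.44, 0.14 and -3.17. The part of tumor makeup in the remaining difference was not tested.

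Among 17 regulators and scaffolds of these pumps, only Nr1i2 passed the test. It encodes the pregnane X receptor, a nuclear receptor that senses drugs and bile acids and is known to induce several transporters. Its normalized counts were 196, 126, 119, 289 and 169 in CTRL and 767, 1685, 256, 524 and 1330 in D30 tumors. T4 lay within the CTRL range, and T2 and T7 were highest, as they were for Abcc3. T5 lay above T1 for Abcc3 (3312 against 2955) and below it for Nr1i2 (524 against 767). Among CTRL tumors N4 was highest for Abcc3 (849) and lowest for Nr1i2 (119). A link between the 2 genes was not tested. The log2 difference was 2.13 (standard error 0.455, adjusted p = 0.0253, exact permutation p = 0.0159). The call was lost with library-size scaling (adjusted p = 0.0579) and without any 1 of N2 (0.0831), N4 (0.0667), N6 (0.0674), T1 (0.0519), T2 (0.0565) or T7 (0.0716). The median log2 difference of the 17 genes was 0.14, and 9 were positive.

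**Figure D5:**
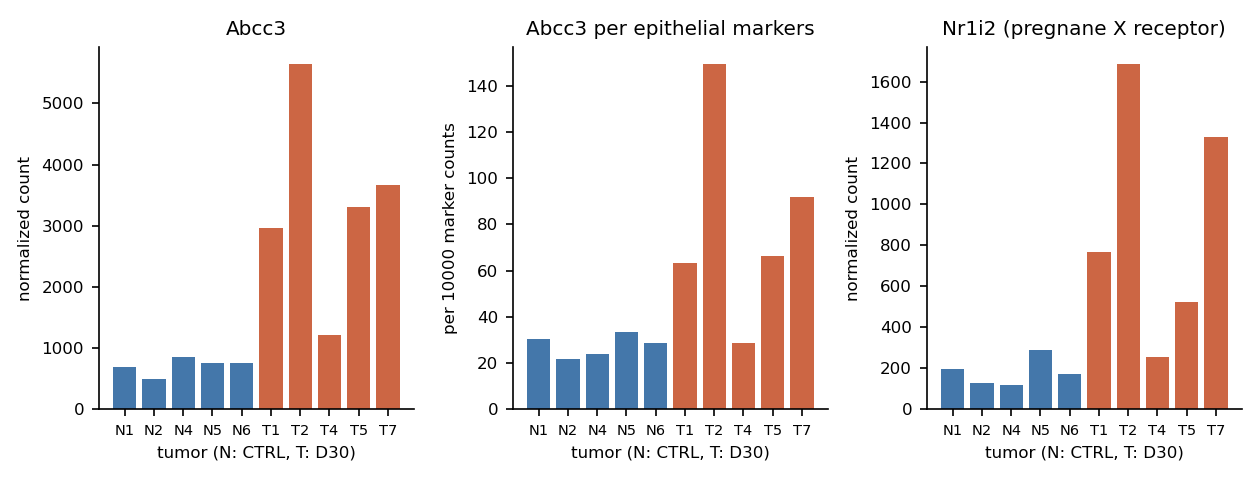
Abcc3 (left, normalized counts), Abcc3 per 10000 counts of ductal epithelium markers (middle) and Nr1i2 (right, normalized counts) in each tumor, CTRL in blue and D30 in orange, on linear axes from 0. T2 is the highest and T4 the lowest D30 tumor in all 3 panels, with T4 at 1216, 28.8 and 256.

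Of 9 targets of the transcription factor NRF2, which answers to oxidative stress and also controls some Abcc genes, only Gclc passed, and it fell. Gclc encodes the enzyme subunit that catalyses the first step of glutathione synthesis, and several Abcc pumps carry glutathione or its conjugates. Its level averaged 14380 ± 3185 for CTRL and 7101 ± 665 normalized counts for D30 (SD, n = 5 each), a log2 difference of -0.996 (adjusted p = 0.0127), and without N2 the adjusted p was 0.0501. The median of the 9 targets was 0.09, with 5 positive. Of the other ABC transporter genes, 42 of 44 were tested and only Abca12, a lipid transporter of the skin, passed. It had at most 1 read in any CTRL tumor and 2.06 to 8.10 normalized counts in D30 tumors. Since CTRL tumors lay at or under the floor of 3 reads, its fitted log2 difference depends on the pseudocount and is not given as a fold. Its adjusted p of 0.0165 became 0.0619 without N2, 0.052 without N5 and 0.0561 without N6. The median over these genes was -0.09, with 19 positive and 23 negative. Of 6 exporters outside the ABC family, 5 were tested and none passed. Those with the smallest p were Mvp, the major vault protein, with a log2 difference of 0.51 (adjusted p = 0.378, and 0.0266 without T4), and Atp7a, a copper pump, with -0.21 (adjusted p = 0.749).

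The genes beside the members on the chromosomes were looked at after the values had been seen, 3 on each side whose mean reached 10 normalized counts. Beside Abcc3, Mycbpap was higher in D30 tumors (log2 difference 2.14, adjusted p = 0.0412) and Cacna1g lower (-1.58, adjusted p = 0.0221), while Ankrd40 and Luc7l3, the nearest genes on one side, had log2 differences of -0.15 and -0.18. None of the 6 neighbours passed for any other member. Beside Abcb1a, Rundc3b had 2592 normalized counts in T4 and 1363 in T5, its highest values, and between 564 and 1103 in the other 8 tumors. Crot, on the other side of Abcb1b, had 4784 in T4 and 1013 in T5, the highest and lowest of the 10 tumors.

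The genes whose log2 levels followed Abcc3 most closely over the 10 tumors, among 17361 whose mean reached 10 normalized counts, were Muc3 (Pearson's r 0.995), Plekhg6 (0.988) and Proser2 (0.983). Muc3, an intestinal mucin, averaged 30.2 ± 9.42 for CTRL and 2980 ± 2820 normalized counts for D30 (SD, n = 5 each). Plekhg6 had 77.2 ± 14.2 and 398 ± 205, and Proser2 had 408 ± 104 and 1345 ± 385. These values are a description of the most alike among many genes, and the points share the difference between groups.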

How the data were processed

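RNA sequencing was performed on 10 KPC orthotopic tumors, 5 CTRL and 5 D30. The authors prepared strand-specific libraries, read them in pairs, trimmed adapters and aligned reads with STAR (2.7.0e). The methods name hg38, the submitters' processing notes GRCm39, and the table lists mouse Ensembl identifiers. The paper lists RSEM among its software, and the counting settings are not given in the sources used here. The table the authors deposited gives a normalized signal for each gene in each tumor, its read count over a size factor. All values gave whole reads (100.0%, tolerance 0.01), 29192261 to 42122304 per tumor. N columns were taken as CTRL by their letter and T columns as D30, the only other group. Positions, lengths and GC content are from GENCODE M21 (GRCm38), which named 94.1% of identifiers.

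limma 3.58.1 (R 4.3.3) with a mean-variance trend was fitted to log2(normalized count + 1) for the 24560 genes with a mean of at least 1, and p values were adjusted by Benjamini-Hochberg. For single values, exact permutation tests (two-sided) were used. Because the labels do not tie columns to animals, p values measure the spread between these tumors. Alternatives were edgeR 4.0.16 and DESeq2 1.42.0, fitted to the recovered reads, beside other scalings, pseudocounts and filters and fits with a tumor left out. Fits with GC adjustment, without N1 and T4, and relative to epithelial markers were added after the data were seen. The members, lists and rules were chosen with earlier results of these data known. Named list genes are those called, or the 2 with the smallest p where none was, and likeness is the highest Pearson's r. The fits were also run on simulated counts with known changes. Those counts held no outlying tumor such as T4, so they do not show how the fits behave with one.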

Additional observations from a re-analysis of the deposited data

Results flagged for a closer look

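Among the 20 groups of 5 tumors checked for a tumor far from the others, the D30 tumor T4 stood out for Abcg2, with 226 normalized counts where the next highest D30 tumor had 110, a gap of 0.722 of the range of the group. About 1 in 20 groups is expected to show such a tumor by chance.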

How the results depend on the processing

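The number of members called was 1 in each of the 21 alternatives. The share of all genes called ran from 1.14% without N2 to 7.97% with DESeq2. Abcc3 was the member called, with log2 differences of 1.88 to 2.43 and adjusted p of 3.02e-08 to 0.0241. Relative to epithelial markers its log2 difference was 1.35, with an unadjusted exact permutation p of 0.0238. The other 8 members missed an adjusted p of 0.05 in each of these alternatives. The sign of Abcb1a turned with library-size scaling (-0.105), without N1 and T4 (-0.048) and with a tumor left out (-0.086 to 0.318), in the exact permutation tests too. Abcc10 turned with edgeR (0.034), DESeq2 (0.04), without N1 and T4 (0.12) and with a tumor left out (-0.27 to 0.34). Abcb1b turned with GC adjustment (0.004). The difference in the share of Abcb1b was -6.0 to 0.29 percentage points with a tumor left out. The cause of these turns was not tested. Called genes among the other ABC genes numbered 2 with library-size scaling, 4 with DESeq2 and 0 to 2 with a tumor left out. Those among the regulators numbered 0, 3 and 0 to 1. Those among the NRF2 targets numbered 2 with DESeq2 and 0 to 1 with a tumor left out, and those among the exporters outside the family 0 to 1. Over all genes DESeq2 called 1957, and 279 were called without N2 and 1573 without T4, against 678. No paired analysis was possible because the numbers of the columns are not the replicate numbers of the labels. The paper describes no pairs of mice either, and states that mice bearing tumors were randomized to the conditions. Matching numbers alone would therefore not have made pairs.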
